A study of Mus musculus with 4 samples.

Results

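The messages described here encode the proteins of the spliceosomal small nuclear ribonucleoproteins (snRNPs) and of the Sm and LSm rings. They were taken from the deposited gene counts by name, as protein-coding genes whose mouse symbol begins with Snrp, Snrnp, Lsm, Sf3a, Sf3b or Prpf followed by a letter or digit, leaving out predicted genes and pseudogenes. The name pattern matched 59 genes, of which 55 of 55357 in the table were kept as members, and 3 processed pseudogenes and the noncoding entry Lsmem2 were left out. Cells came from the testes of C57BL/6 mice at 7 days of age. RNA precipitated with a DDX20 antibody was sequenced in 2 libraries (RIP) and set against 2 libraries of input RNA amounting to 10% of the total RNA. The labels name no mutation or drug. In all 4 libraries cells had been exposed to 254 nm ultraviolet light at 200 mJ per square cm, which crosslinks RNA to bound protein. No precipitation with a control antibody was used here, and the labels do not say whether the libraries came from separate animals or preparations, so a spread between replicates may be technical. The catalogue numbers given for the antibody of the RIP libraries differ in 1 character.

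In the spliceosome, each small nuclear RNA of the U1, U2, U4 and U5 particles carries a ring of Sm proteins around a short uridine-rich site, whereas U6 RNA carries a ring of LSm proteins at its end. DDX20 (Gemin3) is a helicase of the SMN complex, which loads the Sm ring onto the RNA. Further proteins belong to single particles, such as those that hold the U2 particle on the branch site or unwind U4 from U6. The assay measured the messages that encode these proteins, not the proteins or the small nuclear RNAs.

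Total counts were 38458014 and 37927689 in the RIP libraries and 21913977 and 21416567 in the input libraries. Levels are given as CPM, counts relative to library size, after scaling by the trimmed mean of M values (TMM), and a log2 fold change is RIP over input from edgeR's quasi-likelihood fit, with its standard error (SE, n = 2 libraries per group). A gene was called when its Benjamini-Hochberg adjusted p over all 17422 genes tested was below 0.05. The Ddx20 message itself had 77.6 and 83.2 CPM in RIP and 41.4 and 41.2 CPM in input. Mean levels of 6 germ cell markers ran from 11.8 to 60.7 CPM in RIP and from 9.03 to 164 CPM in input, with 4 of 6 lower and 2 higher in RIP. Those of 6 Sertoli cell markers ran from 15.8 to 272 CPM in RIP and from 33.6 to 369.9 CPM in input, with 3 lower and 2 higher. All 5 Leydig cell markers (0.562 to 44.3 CPM in RIP, 4.02 to 121 CPM in input) and all 3 red blood cell markers (1.86 to 44.3 CPM in RIP, 3.90 to 133 CPM in input) were lower in RIP. Of the stromal markers 2 of 4 were lower and 1 higher, and 2 of 3 endothelial and 3 of 4 macrophage markers were lower. The leukocyte gene Ptprc, counted with the macrophage markers, was near 0 in both groups, at 0.207 CPM in RIP and 0.142 CPM in input. The part of cell types in the results was not tested. These marker values compare message levels in RIP with those in input, and do not measure how many cells of a type were present.

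Coding sequences of 2 ring messages are shown, in lower case with the start and stop codons in capitals, because their coding lengths are close while their fold changes differ. Lsm5 and Lsm6 both encode subunits of the LSm rings. They are GENCODE M21 transcripts of GRCm38, both on the minus strand, with gene spans at chr6:56701063-56704710 for Lsm5 and chr8:78804865-78821140 for Lsm6.
Lsm5: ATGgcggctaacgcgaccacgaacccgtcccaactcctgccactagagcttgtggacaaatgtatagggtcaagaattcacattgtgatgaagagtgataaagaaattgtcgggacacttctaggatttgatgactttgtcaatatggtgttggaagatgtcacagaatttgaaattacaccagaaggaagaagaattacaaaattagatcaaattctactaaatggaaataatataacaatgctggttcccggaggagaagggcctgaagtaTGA
Lsm6: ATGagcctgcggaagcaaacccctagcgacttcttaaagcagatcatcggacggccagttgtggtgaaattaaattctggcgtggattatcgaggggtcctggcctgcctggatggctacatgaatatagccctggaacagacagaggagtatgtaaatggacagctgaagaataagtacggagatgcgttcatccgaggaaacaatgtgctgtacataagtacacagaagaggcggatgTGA
With its stop codon the printed sequence has 276 bases in Lsm5 and 243 in Lsm6. Coding lengths elsewhere leave the stop codon out.

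Among the members, messages of small ring proteins were lower in RIP than in input and those of the large U2 and U5 proteins were higher. Of 55 members 54 passed the filter on low counts, and 47 were called, 20 higher and 27 lower. Over all genes tested 38.7% were called higher and 38.6% lower, and among protein-coding genes alone 43.9% and 35.0%. At least 2-fold differences were called for 8 members higher and 17 lower, against 17.1% and 23.5% of all genes. The RIP and input libraries did not overlap for 51 members, against 88.0% of all genes. The median log2 fold change was -0.09 over the members, beside -0.05 over all genes, and single members ran from -2.15 for Lsm5 to 2.19 for Prpf8. With scaling by total counts 16 members were higher and 34 lower, against 28.7% and 50.8% of all genes, and the median of all genes moved by -0.35. The gene that did not pass the filter, Lsmem1, encodes a membrane protein unrelated to snRNPs, which the name pattern takes. It had 0 counts in every library, which allows up to 0.0780 and 0.0791 CPM of unscaled totals in RIP and 0.137 and 0.140 in input (3 counts per library, for counting error alone).

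**Figure D1:**
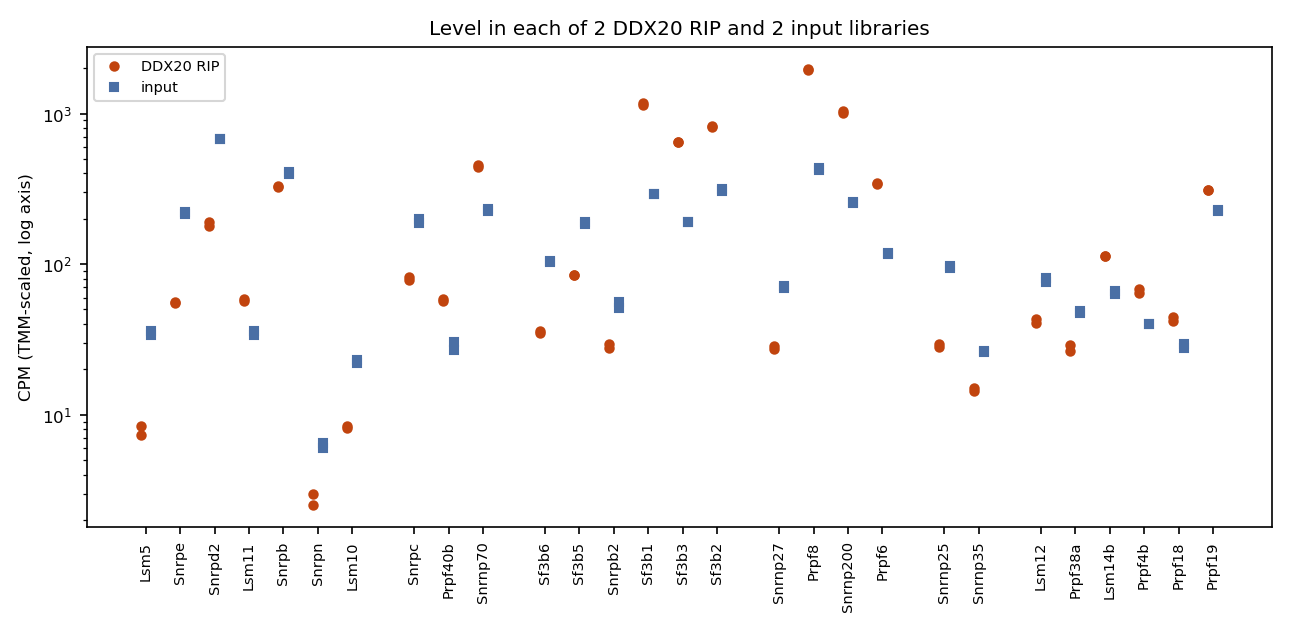
TMM-scaled CPM on a log axis in each of 2 DDX20 RIP libraries (circles, left of each pair) and 2 input libraries (squares, right), for members whose library values are given in the text, of the Sm/LSm rings, U1, U2, U4/U6.U5, U11/U12 and the remainder, from left to right. Replicates lie close together for each gene, and for Prpf8 both RIP libraries (1981 and 1938 CPM) lie above both input libraries (425 and 433 CPM).

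Messages of the Sm and LSm ring proteins fell in 17 of 18 cases and rose in 1, where 660 of 811 protein-coding genes with at most 400 nt of coding sequence were also lower. With an offset for coding length 8 ring genes were higher and 8 lower. Without it the 18 genes had a median log2 fold change of -1.25, and 12 fell at least 2-fold. Their levels summed to 1058 and 1085 CPM in the RIP libraries and 2389 and 2371 CPM in the input libraries. Lsm5, a subunit shared by the nuclear and cytoplasmic LSm rings, had 7.36 and 8.45 CPM in the RIP libraries and 34.1 and 35.9 CPM in the input libraries, a log2 fold change of -2.15 ± 0.0945. Snrpe, which encodes SmE, had 55.2 and 56.2 CPM in the RIP libraries and 221 and 217 CPM in the input libraries, a log2 fold change of -1.97 ± 0.0392. Snrpd2, which encodes SmD2, had 178 and 190.4 CPM in the RIP libraries and 677 and 674 CPM in the input libraries, a log2 fold change of -1.87 ± 0.0297. For each of these genes both RIP libraries lay below both input libraries, which the rule that chose them required. Of all genes tested 88.0% did not overlap. The largest adjusted p among the ring genes was 7.27e-07, for Snrpn (edgeR's quasi-likelihood test, Benjamini-Hochberg adjustment).

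The other Sm genes fell by differing amounts. Snrpb, which encodes SmB, changed least of those that fell, with 325 and 330.1 CPM in the RIP libraries and 409.6 and 396 CPM in the input libraries, a log2 fold change of -0.30 ± 0.0278. Its paralog Snrpn encodes SmN, which takes the place of SmB in some tissues, and had 2.51 and 2.99 CPM in the RIP libraries and 6.04 and 6.50 CPM in the input libraries, a log2 fold change of -1.19 ± 0.186. Their aligned coding sequences are 80.5% identical and share no stretch of 150 bases, the read length, and the longest run in common has 32 bases. Snrpg (SmG) stood at -1.33 ± 0.0469, Snrpd1 (SmD1) at -1.11 ± 0.0511 and Snrpd3 (SmD3) at -0.96 ± 0.0503. Snrpf (SmF) stood at -1.74 ± 0.251, from counts of only 1.03 and 1.42 CPM in RIP and 4.05 and 4.14 CPM in input. In M21, 65.85% of its exon bases are also exon bases of Ccdc38 and 19.51% of 4933408J17Rik, both on the opposite strand. The library kit does not mark strand. Ccdc38 itself had 0 and 0.0887 CPM in RIP and 0.162 and 0.455 CPM in input. Snrpn shares 27.28% of its exon bases with Gm38393 and 10% with Snurf, both on the same strand, and 6.86% with Gm18908 on the opposite strand. How overlaps affected the counts of Snrpf and Snrpn was not tested.

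Levels per kb of merged exon length differed widely among the Sm messages, whose proteins each enter the ring once. Snrpd2 had 70.3 ± 3.39 CPM per kb in RIP and 258 ± 0.743 in input, and Snrpb had 166 ± 1.74 CPM per kb in RIP and 204 ± 4.69 in input (mean ± SD, n = 2 each). Snrpb thus came before Snrpd2 in RIP and after it in input, by more than the spread of the libraries in both. Snrpe followed with 40.6 ± 0.551 CPM per kb in RIP and 159 ± 2.11 in input, and Snrpg with 37.0 ± 3.20 CPM per kb in RIP and 92.7 ± 1.59 in input. Lower levels were found for Snrpd1 (22.6 ± 1.42 CPM per kb in RIP and 48.7 ± 0.384 in input), Snrpd3 (13.9 ± 0.455 CPM per kb in RIP and 27.0 ± 0.506 in input) and Snrpf (1.42 ± 0.316 CPM per kb in RIP and 4.76 ± 0.0714 in input). The order of these 5 genes, from Snrpe to Snrpf, was the same in RIP and input. In RIP, Snrpe and Snrpg differed by little more than the SD of Snrpg. Exon bases that Snrpf shares with other genes count in its length, and their effect on its level was not tested. Levels per length of a single transcript were not computed.

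LSm proteins form one ring on U6 RNA in the nucleus, with Lsm8 as its own subunit, and another in the cytoplasm that starts message decay, with Lsm1 in that place. Lsm7 (-1.80 ± 0.0649) and Lsm3 (-1.80 ± 0.0707) fell about as much as Snrpd2, and Lsm4 (-1.32 ± 0.0330) about as much as Snrpg. Lsm1 fell by 1.16 ± 0.0727 and Lsm8 by 0.95 ± 0.0631 on the log2 scale. Lsm2 (-0.72 ± 0.0643) and Lsm6 (-0.71 ± 0.0619) fell least among the LSm genes of these rings. Lsm5 and Lsm6, whose coding sequences are printed above, thus differed by more than 1 unit on the log2 scale, with SEs under 0.1. Lsm10 and Lsm11 take the places of SmD1 and SmD2 in the ring of U7, the particle that cuts histone messages, and they moved in opposite directions. Lsm11 had 59.1 and 57.3 CPM in the RIP libraries and 34.0 and 36.0 CPM in the input libraries, a log2 fold change of 0.73 ± 0.0620. Lsm10 had 8.37 and 8.16 CPM in the RIP libraries and 23.3 and 22.0 CPM in the input libraries, a log2 fold change of -1.45 ± 0.104. The coding length is 1083 nt in Lsm11, the longest of the ring genes, and 366 nt in Lsm10.

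**Figure D2:**
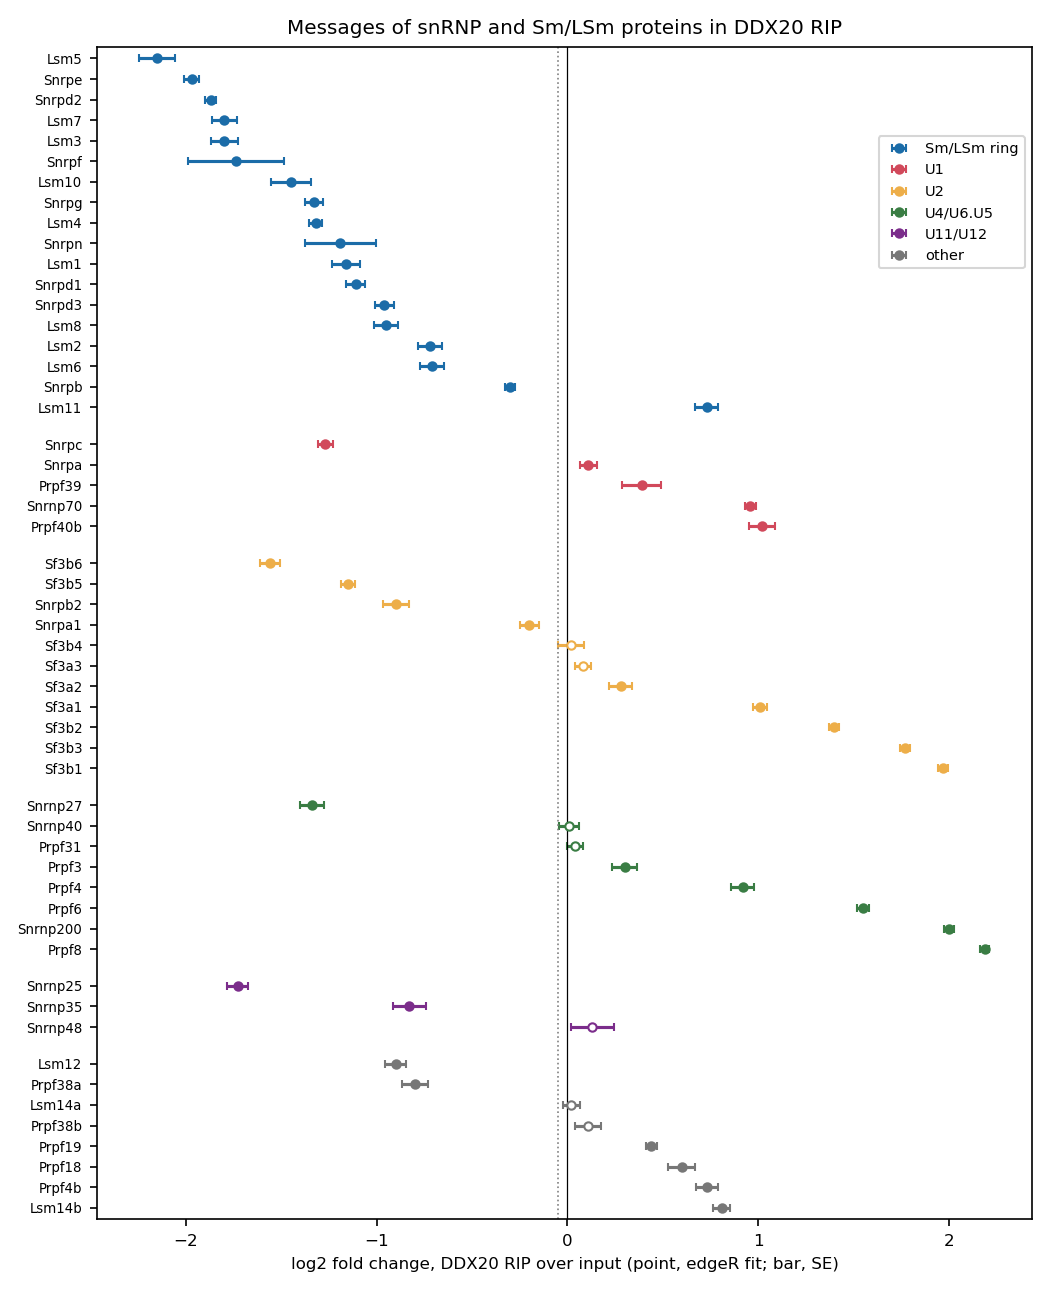
log2 fold change of RIP over input for 53 members (points, edgeR fit; bars, SE), ordered within each set, with open points for members not called and a dotted line at the median of all genes, -0.05. All ring genes but Lsm11 lie left of 0, whereas U2 and U4/U6.U5 genes run from -1.56 to 1.97 and from -1.34 to 2.19.

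The U1 particle recognises the 5′ splice site, and 5 of its 6 genes were higher and 1 lower with TMM scaling (3 and 2 with total counts). Among protein-coding genes tested 43.9% were higher and 35.0% lower with TMM scaling. The median log2 fold change of the 6 U1 genes was 0.68. Snrnp70, which encodes the U1-70K protein, had 452 and 442 CPM in the RIP libraries and 233 and 225 CPM in the input libraries, a log2 fold change of 0.96 ± 0.0291. Snrpc, which encodes a zinc finger protein of U1, had 82.8 and 78.1 CPM in the RIP libraries and 188 and 199 CPM in the input libraries, a log2 fold change of -1.27 ± 0.0403. The libraries of the 2 groups did not overlap for either gene, which the rule that chose them required. Snrpa, whose product binds a stem loop of U1 RNA, was called higher at 0.11 ± 0.0434 under TMM and lower at -0.24 under total counts. The higher call was lost without RIP replicate 1 (0.12) or input replicate 2 (0.10), with DESeq2 (0.13) and with halved counts (0.057). By TMM with at least 5 CPM in 2 libraries Snrpa was called lower (-0.14), and with the coding-length offset higher (0.53). The largest adjusted p among U1 genes was that of Snrpa, 0.0283 (edgeR's quasi-likelihood test, Benjamini-Hochberg adjustment).

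Of the factors that associate with U1, Prpf40b, a protein with WW domains, had 57.2 and 59.1 CPM in the RIP libraries and 30.5 and 26.8 CPM in the input libraries, a log2 fold change of 1.02 ± 0.0671. Both of its RIP libraries lay above both input libraries, which its choice among the largest rises required. Prpf39, another U1-associated factor, rose by 0.39 ± 0.101 under TMM but had 0.04 under total counts, uncalled there. Of its exon bases 5.01% are shared with Fkbp3 on the opposite strand, which had 23.8 and 26.1 CPM in RIP and 107 and 106 CPM in input.

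U2 genes split, with 5 of 11 higher, 4 lower and 2 not called by TMM scaling, and 4 higher and 6 lower by total counts. Their median was 0.08 by TMM scaling and -0.27 by total counts on the log2 scale. By TMM scaling 45.5% were higher and 36.4% lower, near the 43.9% and 35.0% of protein-coding genes tested. The U2 genes that rose most encode large subunits of SF3b, the complex that holds U2 on the branch site. Sf3b1, whose product clamps the branch site helix, had 1170.0 and 1133 CPM in the RIP libraries and 293 and 294 CPM in the input libraries, a log2 fold change of 1.97 ± 0.0258. Sf3b3 had 649 and 649 CPM in the RIP libraries and 189.8 and 190.0 CPM in the input libraries, a log2 fold change of 1.77 ± 0.0277. Sf3b2 had 825 and 814 CPM in the RIP libraries and 314 and 308 CPM in the input libraries, a log2 fold change of 1.40 ± 0.0259. Small subunits of the same complex among the members fell. Sf3b6, whose product touches the branch point adenosine, had 34.8 and 35.8 CPM in the RIP libraries and 103 and 105 CPM in the input libraries, a log2 fold change of -1.56 ± 0.0515. Sf3b5 had 84.7 and 84.5 CPM in the RIP libraries and 189.5 and 186 CPM in the input libraries, a log2 fold change of -1.15 ± 0.0377, and is encoded by a single exon. Among the SF3b members, genes for 258 to 375 nt of coding sequence fell and those for 2634 to 3912 nt rose. Sf3b4 (1272 nt) stood at 0.02 ± 0.0680 and was not called. Phf5a, a listed U2 factor of 330 nt outside the name pattern, fell by only 0.28 ± 0.0443. With an offset for coding length it stood at 1.01.

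The SF3a subunits, which join SF3b to the U2 core, ranged from no call to a rise by TMM scaling. Sf3a1 rose by 1.01 ± 0.0390 on the log2 scale. Sf3a2 rose by 0.28 ± 0.0592 under TMM but had -0.07 under total counts, and 16.14% of its exon bases are shared with Plekhj1 on the opposite strand. Sf3a3 stood at 0.08 ± 0.0424 and was not called. It was called higher without RIP replicate 2 (0.16), with RLE size factors (0.11), without a filter (0.14) and with an exon-length offset (0.35). Lower calls came with total counts (-0.27), upper-quartile scaling (-0.26), at least 5 CPM in 2 libraries (-0.16) and the coding-length offset (-0.13). Snrpb2 and Snrpa1 encode proteins that bind a stem loop of U2 RNA as a pair. Snrpb2 had 27.8 and 29.5 CPM in the RIP libraries and 55.7 and 51.0 CPM in the input libraries, a log2 fold change of -0.90 ± 0.0673. Snrpa1 fell by 0.20 ± 0.0508 on the log2 scale and was not called without input replicate 1 (-0.13) or under an exon-length offset (-0.046). With the coding-length offset Snrpa1 was called higher (0.34). The largest adjusted p among called U2 genes was that of Snrpa1, 0.000764 (edgeR's quasi-likelihood test, Benjamini-Hochberg adjustment).

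In the tri-snRNP of U4, U6 and U5, 5 of 8 genes rose and 1 fell by TMM scaling (4 and 3 by total counts). Of protein-coding genes tested 43.9% rose and 35.0% fell by TMM scaling. The median of the 8 genes was 0.61 on the log2 scale. Levels of the 8 genes summed to 3668 and 3589.5 CPM in the RIP libraries and 1094 and 1114 CPM in the input libraries. Summed levels of the ring genes were lower in RIP than in input. Prpf8, the scaffold of the catalytic core, had 1981 and 1938 CPM in the RIP libraries and 425 and 433 CPM in the input libraries, a log2 fold change of 2.19 ± 0.0239. Snrnp200, the helicase (Brr2) that unwinds U4 from U6, had 1038 and 1015 CPM in the RIP libraries and 253 and 259.5 CPM in the input libraries, a log2 fold change of 2.00 ± 0.0264. Prpf6, which bridges U5 to U4/U6, had 347 and 339.7 CPM in the RIP libraries and 117 and 118 CPM in the input libraries, a log2 fold change of 1.55 ± 0.0327. These were the members of this particle with the longest coding sequences, from 2823 nt in Prpf6 to 7005 nt in Prpf8, the longest of all members. Snrnp27, a small protein of the tri-snRNP, had 27.5 and 28.4 CPM in the RIP libraries and 69.9 and 72.1 CPM in the input libraries, a log2 fold change of -1.34 ± 0.0611.

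The U4/U6 proteins Prpf3 and Prpf4, which bind each other, were unequal. Prpf4 rose by 0.92 ± 0.0607, and Prpf3 rose by 0.30 ± 0.0665 under TMM but had -0.05 under total counts. Prpf31, which holds U4 and U6 together, stood at 0.04 ± 0.0411 and Snrnp40, a WD-repeat protein of U5, at 0.01 ± 0.0527, and neither was called. A noncoding gene on the opposite strand, Gm15927, shares 18.09% of the exon bases of Prpf31. Mutations in the human counterparts of Prpf3, Prpf4, Prpf6, Prpf8, Prpf31 and Snrnp200 are known from inherited retinal degeneration. Among these genes in the mouse libraries, 5 rose and Prpf31 was not called by TMM scaling, where 43.9% of protein-coding genes tested rose. By total counts Prpf3 was not called and Prpf31 was called lower (-0.31). With the coding-length offset Prpf3 (-0.25) and Prpf31 (-0.17) were both called lower. The others were called higher in each of these fits. The largest adjusted p among called genes of the tri-snRNP was 0.000133, for Prpf3 (edgeR's quasi-likelihood test, Benjamini-Hochberg adjustment).

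Genes of the U11/U12 particle, which serves the rare minor introns, fell or were not called. Of the 3 genes 2 fell and 0 rose, where 35.0% of protein-coding genes tested fell and 43.9% rose. Snrnp25 had 29.6 and 28.1 CPM in the RIP libraries and 94.5 and 97.0 CPM in the input libraries, a log2 fold change of -1.73 ± 0.0556. Snrnp35 had 14.5 and 15.1 CPM in the RIP libraries and 26.6 and 26.0 CPM in the input libraries, a log2 fold change of -0.83 ± 0.0870. Snrnp48 stood at 0.13 ± 0.112 and was not called. The libraries of RIP and input overlapped for Snrnp48 alone among these 3 genes.

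Members outside the particles rose in 4 cases and fell in 2 by TMM scaling (4 and 4 by total counts). By TMM scaling that is 50% and 25% of those tested, beside 43.9% and 35.0% of protein-coding genes tested. Prpf19, a ubiquitin ligase that names its own spliceosomal complex, had 309 and 308 CPM in the RIP libraries and 226 and 229 CPM in the input libraries, a log2 fold change of 0.44 ± 0.0297. Prpf18, which acts in the second step of splicing, had 41.9 and 44.8 CPM in the RIP libraries and 29.3 and 27.9 CPM in the input libraries, a log2 fold change of 0.60 ± 0.0696. Prpf4b, a kinase of splicing factors, had 64.8 and 68.1 CPM in the RIP libraries and 40.3 and 40.1 CPM in the input libraries, a log2 fold change of 0.73 ± 0.0576. Prpf38a, needed to activate the spliceosome, went the other way, with 26.3 and 28.9 CPM in the RIP libraries and 47.3 and 48.6 CPM in the input libraries, a log2 fold change of -0.80 ± 0.0688. Its relative Prpf38b stood at 0.11 ± 0.0688 and was not called, but was called higher without RIP replicate 1 (0.21) and without a filter (0.17). By contrast, Prpf38b was called lower with total counts and upper-quartile scaling (-0.23 in both), the coding-length offset (-0.18) and an exon-length offset (-0.42). Lsm12 and Lsm14 proteins carry an LSm domain but form no ring. Lsm14b had 114 and 112 CPM in the RIP libraries and 63.2 and 65.8 CPM in the input libraries, a log2 fold change of 0.81 ± 0.0443, while its paralog Lsm14a, a P-body protein, stood at 0.02 ± 0.0454 and was not called. Lsm12 had 40.4 and 43.5 CPM in the RIP libraries and 80.6 and 76.2 CPM in the input libraries, a log2 fold change of -0.90 ± 0.0561.

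Fold changes followed coding length among the members. Across the 54 members tested Spearman's rho of coding length with log2 fold change was 0.90, beside 0.64 across the 14677 protein-coding genes tested, given as descriptions over genes of the same 4 libraries. All 17 tested members with at most 400 nt of coding sequence fell (median -1.45), as did 660 of 811 protein-coding genes of that length. All 9 members above that and up to 800 nt fell (median -0.90), as did 1806 of 2559 protein-coding genes. Of 15 members of up to 1600 nt, 8 rose and 1 fell (median 0.13), beside 1866 and 2033 of 5328 protein-coding genes. Of 9 members of up to 3200 nt, 8 rose and 0 fell (median 0.96), beside 2801 and 538 of 4208 protein-coding genes. All 4 members above 3200 nt rose (median 1.99), as did 1443 of 1771 protein-coding genes. Over all protein-coding genes tested the medians of these length classes were -1.42, -0.80, -0.07, 0.64 and 1.34. The rho was 0.80 with transcript length, 0.81 with the number of exons, 0.27 with the length of untranslated sequence, 0.14 with the GC content of the coding sequence and 0.11 with the mean CPM in input.

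**Figure D3:**
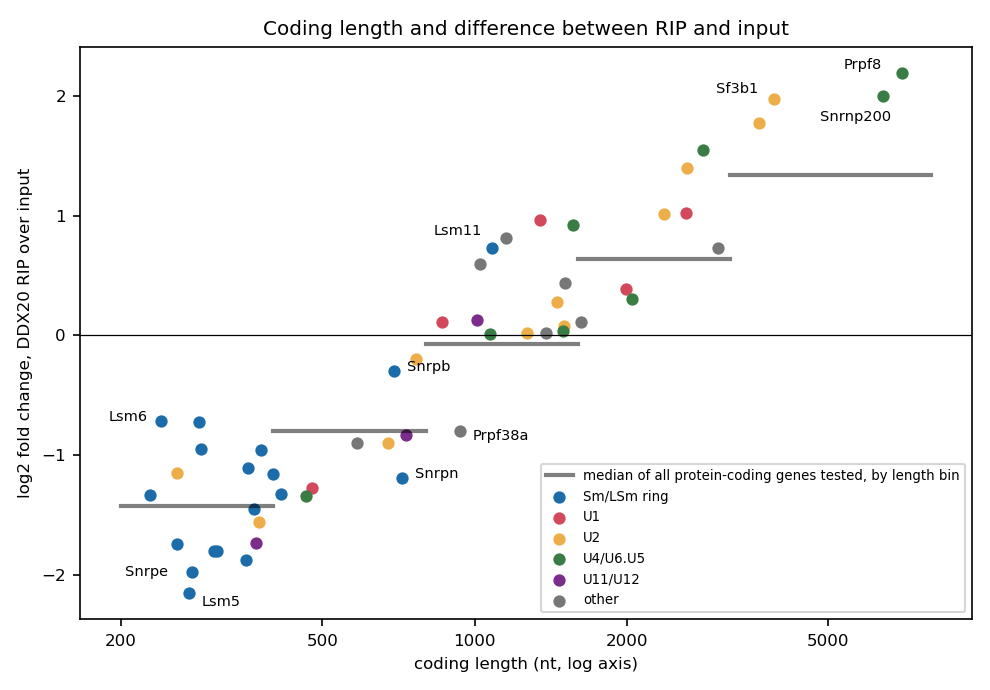
log2 fold change of RIP over input against coding length (nt, log axis) for 53 members coloured by set. Grey bars give the median of all protein-coding genes tested in each of 5 length classes. The outermost classes are drawn to fixed limits just beyond the members' range. Members run from -2.15 (Lsm5) at 273 nt to 2.19 (Prpf8) at 7005 nt.

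Within the ring genes the order by length was loose. Over these 18 genes rho was 0.37 with coding length, 0.60 with transcript length and 0.53 with untranslated length, against 0.90, 0.76 and 0.07 over the 36 members outside the rings. The 8 members with at most 300 nt of coding sequence spanned -2.15 to -0.71, inside the range of 330 genes of that length (-4.45 to 2.01, median -1.55). Lsm6 (-0.71) has the longest untranslated sequence of the short ring genes, 3552 nt, while Snrpe (-1.97) has 227 nt and Lsm5 (-2.15) 221 nt. Snrpd2, with 1066 nt, and Lsm2 (-0.72), with 555 nt, went against that order. With the GC content of the coding sequence rho was 0.37 over the ring genes.

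A fit with an offset for coding length, a curve fitted over all protein-coding genes, turned the sign of the fold change of 17 members. With it 26 members were called higher and 21 lower, against 39.3% and 33.9% of the genes in that fit, 0 of them at least 2-fold, and the members' median was 0.08. The ring genes divided evenly, with 8 higher and 8 lower and a median of -0.12. Lsm5 (-0.70), Snrpd2 (-0.64), Snrpn (-0.59) and Snrpe (-0.54) remained lower, whereas Lsm6 (0.83), Lsm2 (0.69), Lsm8 (0.45), Snrpb (0.33), Snrpg (0.26), Snrpd3 (0.22) and Snrpd1 (0.12) turned to higher. Lsm11 was higher in both fits (0.90 with the offset). Large proteins of U2 and U5 were called higher in both fits, with offset values of 0.81 for Sf3b1, 0.66 for Sf3b3, 0.65 for Prpf6, 0.64 for Prpf8 and 0.51 for Snrnp200. Snrnp70 was least altered among the U1 genes that rose, at 0.86, while Prpf40b stood at 0.20.

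**Figure D4:**
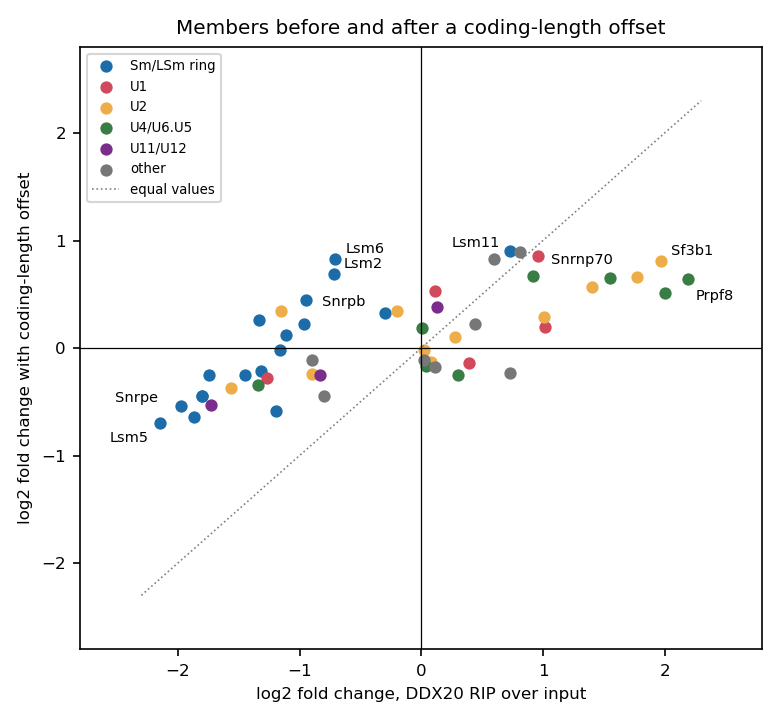
log2 fold change of 53 members with an offset for coding length (vertical axis) against that without it (horizontal axis), coloured by set, with a dotted line where both are equal. Values span -2.15 to 2.19 without the offset, and members furthest from 0 with it include Lsm11 at 0.90 and Lsm5 at -0.70.

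Other genes of the spliceosome, 60 tested, came from lists in which 1 symbol found no match. They gave 30 higher and 21 lower with a median of 0.15 on the log2 scale (23 higher and 32 lower by total counts). By TMM scaling that is 50% and 35%, beside 43.9% and 35.0% of protein-coding genes tested. By total counts 28.7% of all genes were higher and 50.8% lower. Of 9 further proteins of U5 and the tri-snRNP 5 rose and 3 fell, among them the U5 GTPase gene Eftud2 (1.25 ± 0.0301), partner of Prpf8, and Snu13 (-0.89 ± 0.0402), whose product binds U4 RNA. Of 12 factors of U2 and the 3′ splice site 7 rose and 5 fell, with the branch point binding gene Sf1 at 1.23 ± 0.0323 and Puf60 at -0.09 ± 0.0266, whose call was lost without RIP replicate 2 (-0.034) or input replicate 1 (-0.075), with DESeq2 (-0.068) and without a filter (-0.037). Among 6 U1-associated genes 3 rose, among them Rbm25 (0.67 ± 0.0431), and 1 fell, Luc7l3 (-0.28 ± 0.0544). Of 7 further U11/U12 genes 0 rose and 5 fell, with Zcrb1 at -1.36 ± 0.0536. With the coding-length offset 5 of these 7 genes were still called lower and 1 higher, with a median of -0.57. Of the 3 U11/U12 members 2 were lower and 1 higher with it. In the Prp19 complex and the activated spliceosome 9 of 19 rose and 6 fell, with the helicase gene Aqr at 2.00 ± 0.0358 and Bud31 at -1.65 ± 0.0400. Of 6 spliceosomal helicases 5 rose, among them Dhx15 (1.65 ± 0.0288), which takes apart spent spliceosomes, and Ddx41 fell (-0.30 ± 0.0431). Sart3, which helps U6 rejoin U4, stood at 1.64 ± 0.0382.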

How the data were processed

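The authors deposited raw read counts per gene for 4 libraries, 55357 gene identifiers in all. The tools listed per the submitters' processing notes are STAR 2.7.2b, featureCounts, SAMtools, cutadapt 4.1 and Trimmomatic 0.36, and the build is GRCm38. Their settings and annotation release were not given in the sources used here. Per the labels' protocols the NEBNext Ultra RNA kit and 150-nt read pairs were used. Of nonzero counts 65.37% to 67.4% per library are even, as when both mates are counted, so the depth behind a value may be overstated. Symbols, coordinates and lengths came from GENCODE M21 (GRCm38), which names 94.1% of identifiers, 35 with the same version. Coding length is from 1 transcript per gene, ranked by APPRIS and then by length. Group and replicate came from the titles.

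Genes were filtered by filterByExpr, scaled by TMM (factors 0.8801 and 0.8924 for RIP, 1.127 and 1.13 for input) and tested on the whole table with edgeR 4.0.16 (robust quasi-likelihood) in R 4.3.3, after a run on simulated data with known changes. The SE was obtained as |log2 fold change|/sqrt(F). Alternatives used limma 3.58.1, DESeq2 1.42.0, other scalings and filters, halved counts, length offsets (loess, span 0.3), a replicate block and leaving out each library. With counts halved, the median chi-square between replicates was 1.15 (RIP) and 1.19 (input) times that of counting noise. This ratio was not computed on the unhalved counts that were fitted. Replicates were kept apart.

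Members, sub-groups and lists were chosen with earlier results of these data known. Values in every library are given for the 3 called members per direction and sub-group with the largest change. These were taken among members averaging 10 CPM or more whose groups do not overlap. Values are also given for the most abundant member of each sub-group, and for Snrpb, Snrpn, Prpf40b, Lsm10 and Lsm11. From each list, the most abundant called gene per direction is named, and Phf5a besides. Near-identical processed copies can share reads with Sm genes, and 15 members share exon bases with another gene. Values of 1 member are not reported here, and it is left out of the figures but kept in all counts.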

Additional observations from a re-analysis of the deposited data

How the results depend on the processing

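Of the alternatives to TMM scaling and edgeR, RLE size factors, DESeq2, limma-voom and the replicate block kept every count of members in each direction within 1.5 times. Upper-quartile scaling and total counts lowered all values by nearly the same amount: 1590 and 1567 genes were then higher at least 2-fold, 3 U1 genes were higher and 2 lower, 3 genes of U4/U6.U5, 4 of the remaining members and 32 of the listed spliceosome genes were lower, and the members' median was -0.43 and -0.44. Signs turned for Snrpa (-0.24 in both), Sf3b4 (-0.32 in both), Sf3a3 (-0.26 and -0.27), Sf3a2 (-0.064 and -0.071), Snrnp40 (-0.33 in both), Prpf31 (-0.31 in both), Prpf3 (-0.041 and -0.047), Snrnp48 (-0.21 and -0.22), Lsm14a (-0.32 and -0.33), Prpf38b (-0.23 in both) and the U2 median (-0.26 and -0.27). With at least 5 CPM in 2 libraries, 1709 genes were higher and 2476 lower at least 2-fold, 3 U1 genes were higher and 2 lower, 3 of U4/U6.U5 were lower and the median was -0.23; signs turned for Snrpa (-0.14), Sf3b4 (-0.22), Sf3a3 (-0.16), Snrnp40 (-0.23), Prpf31 (-0.21), Snrnp48 (-0.11), Lsm14a (-0.22), Prpf38b (-0.13) and the U2 median (-0.16). With the coding-length offset, which by its construction takes out the trend with length, 841 genes were higher and 1805 lower at least 2-fold, 0 members in either direction; 8 ring genes were higher and 8 lower, 3 U1 and 1 U11/U12 genes were higher, 3 of U4/U6.U5 and 4 remaining members were lower, the median was 0.08 and rho 0.36. Signs turned for Snrpg (0.26), Snrpd1 (0.12), Snrpd3 (0.22), Lsm8 (0.45), Lsm2 (0.69), Lsm6 (0.83), Snrpb (0.33), Prpf39 (-0.14), Sf3b5 (0.34), Snrpa1 (0.34), Sf3b4 (-0.017), Sf3a3 (-0.13), Prpf31 (-0.17), Prpf3 (-0.25), Lsm14a (-0.11), Prpf38b (-0.18), Prpf4b (-0.23), Snu13 (0.28) and Rbm25 (-0.11). An offset for merged exon length gave 1897 genes higher and 2474 lower at least 2-fold, 5 and 7 members; 2 ring genes and 2 remaining members were higher, 2 U1 genes, 2 of U4/U6.U5 and 5 remaining members were lower, the median was -0.22 and rho 0.76. Signs turned for Snrpb (0.32), Prpf39 (-0.48), Snrnp40 (-0.047), Prpf31 (-0.31), Prpf3 (-0.072), Snrnp35 (0.16), Snrnp48 (-0.65), Lsm14a (-0.42), Prpf38b (-0.42), Prpf19 (-0.13), Rbm25 (-0.40) and Ddx41 (0.0044). Without a filter the members' median was -0.04. Halved counts gave -0.14, with Sf3b4 at -0.025, Snrnp40 at -0.032, Prpf31 at -0.013 and Lsm14a at -0.03. The cause of the other changes was not tested.

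Leaving out each library in turn gave a rho of coding length with fold change between 0.89 and 0.90, and put Snrnp40 between -0.013 (without input replicate 1) and 0.075. Calls were then lost for Snrpa (0.12 without RIP replicate 1, 0.10 without input replicate 2) and Snrpa1 (-0.13 without input replicate 1), and gained for Sf3a3 (0.16 without RIP replicate 2) and Prpf38b (0.21 without RIP replicate 1). With 1 library left in a group, it is assumed to vary like the other group. Same-numbered libraries share only a number in their labels, which do not say whether they were paired. The correlation of their deviations was 0.0107. It cannot settle pairing, because replicates differed by little more than counting noise. With the replicate number as a block, all 54 members kept direction and call, and 6734 genes were higher and 6655 lower. Members under about 5 CPM, Snrpf and Snrpn, have the largest errors, and 2 libraries per group limit every estimate of spread.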
